A study of Rattus norvegicus with 33 samples.

Results

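Fatty acid uptake and oxidation was followed through 32 genes in rat soleus, the slow-twitch muscle of the calf that relies on fat as a fuel. The genes were chosen by name, with earlier results of these data known, and most serve to carry a fatty acid from the capillary to the electron transport chain. The set also holds the peroxisomal Acox2, Pdk4 and Mlycd, which act on the choice of fuel, and the uncoupling proteins Ucp2 and Ucp3. All 32 were measured among 14506 genes with a symbol on the arrays. There were 33 arrays in 11 groups of 3, each from female Wistar rats. Sham-SCI rats had a laminectomy only. SCI rats had a complete transection of the spinal cord between T9 and T10 at 9 weeks of age and, 14 weeks later, sham implantation of a stimulator with tenotomy of the left gastrocnemius. SCI-ES 1 day, SCI-ES 3 days and SCI-ES 7 days had the same transection and tenotomy, with a working stimulator. They received electrical stimulation (ES) of the muscle, through electrodes beside nerves of the leg, for 1 hour each day. It began 16 weeks after transection and lasted 1, 3 or 7 days, and tissue was taken about 24 hours after the last session. The labels mark Sham-SCI rats as having no gastrocnemius surgery, and whether they had a sham implantation is not given in the sources used here, so SCI differed from Sham-SCI in the tenotomy as well as in the cord. The SCI muscles were taken 21 days after sham implantation, which is later after that surgery than in the SCI-ES 1 day and 3 days groups. In rats of 22 to 23 weeks of age with an intact cord, gastrocnemius ablation (GA), a tenotomy that overloads the soleus of the left leg, was compared with an identical surgery without the cut (Sham-GA) after 1, 3 and 7 days.

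Fatty acids reach a muscle fiber as triglyceride that lipoprotein lipase splits at the capillary wall, cross the membrane with the help of transporters, and are carried by a binding protein to acyl-CoA synthetases. The carnitine shuttle moves the acyl groups into the mitochondrion, where each turn of beta-oxidation shortens the chain and passes electrons through flavoproteins to the respiratory chain. Slow fibers are rich in these proteins, and disuse of muscle is known for a shift toward fast fibers and glucose.

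All values are log2 expression on the scale of robust multi-array averaging (RMA). A gene was called changed when its Benjamini-Hochberg adjusted p from limma, over all genes tested, was under 0.05 and the change was at least 1.5-fold. Each group is 3 animals. The limma p-values rest on the spread between arrays within groups, pooled over all groups of the fit and moderated across genes. In a whole muscle, fewer cells of a type and less RNA per cell cannot be told apart. The tissue carried the markers of its label: each of 7 muscle genes, Acta1 and Ckm among them, averaged at least 13.02, and the slow myosin gene Myh7 averaged 13.15 over the 33 arrays, above 99.8% of genes. That mean covers groups that differ, since the slow fiber markers, Myh7 among them, lay lower in SCI than in Sham-SCI. Most members were bright, with 27 of 32 above the level of 80% of genes, while Acox2 averaged 6.25 and Mlycd 8.13. A pair of Sham-GA arrays stood apart from the rest of their groups, and values without them are given with the GA results.

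After SCI, the transcripts for fat uptake and oxidation lay lower in most of the set, and Ucp3 lay higher. The log2 fold change of SCI against Sham-SCI was below 0 for 28 of 32 members, with a median of -0.39, against -0.02 over all genes tested. A single member passed the test: Acox2, which encodes a peroxisomal oxidase of branched-chain acyl-CoAs, fell. That is 1 call of 32 members, beside 58 of 14456 genes (0.401%) called in either direction and 0.242% called lower. The arrays of SCI lay wholly below those of Sham-SCI for 19 members, where 13.1% of all genes did so, and wholly above for 1, where 9.14% did so. Without 1 array the counts of members below 0 ranged from 25 to 29 and the median from -0.53 to -0.29.

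The Acox2 values were 6.83, 6.85 and 7.30 in Sham-SCI and 6.25, 5.65 and 6.0 in SCI. The groups did not overlap, and the fall was 1.03 on the log2 scale (standard error 0.21), or 2.04-fold, with an adjusted p of 0.0485 in limma. The gene is dim on these arrays, and the call was lost without any single array of either group and when all 33 arrays were fitted at once (adjusted p = 0.0618).

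Among the 4 genes of uptake and binding, all lay lower in SCI and none passed the test. Fabp3, the fatty acid binding protein of muscle cytosol, had the lowest log2 fold change of the set. Its level was 12.14, 12.05 and 12.27 in Sham-SCI and 11.35, 10.57 and 10.76 in SCI, with no overlap. The log2 fold change was -1.26 (95% interval -2.30 to -0.22, adjusted p = 0.249, limma), and in a fit of those 6 arrays alone the adjusted p was 0.0426. Lpl, the lipase at the capillary wall, differed by -0.90 and Slc27a1, a membrane fatty acid transporter, by -0.87, both on the log2 scale and both without overlap of the arrays. Cd36, the main fatty acid translocase, differed by -0.45, and its arrays overlapped. Its weaker row on the array gave group means of 9.63 in SCI and 10.23 in Sham-SCI, in the same direction.

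Inside the fiber, the steps differed in size. Of the activating enzymes, Acsl1, the main long-chain acyl-CoA synthetase of muscle, lay lower by -0.54 and Acot2, a mitochondrial thioesterase that reverses activation, by -0.62, both log2 fold changes. Acsl6, another synthetase, differed by 0.61, with arrays of 9.11, 10.54 and 9.54 in Sham-SCI and 10.90, 9.33 and 10.80 in SCI that overlapped. All 5 genes of the carnitine shuttle were below 0, from -0.60 for Slc25a20, the carnitine-acylcarnitine carrier, to -0.03 for Cpt1a, the carnitine palmitoyltransferase form typical of liver. The muscle form Cpt1b differed by -0.33. The 4 acyl-CoA dehydrogenases ranged from -0.54 (Acads, the short-chain enzyme) to -0.26 (Acadm, the medium-chain enzyme). The 5 genes of the later steps were all below 0, and Hadh, the hydroxyacyl-CoA dehydrogenase of the matrix, was the lowest of them at -0.93. The subunits of the trifunctional protein, Hadha and Hadhb, differed by -0.38 and -0.60. Of the 3 genes needed for unsaturated chains, Eci1 differed by -0.48 without overlap of the arrays, Decr1 by 0.03 and Eci2 by -0.05. Of the electron-transferring flavoprotein genes, Etfa differed by -0.52, Etfb by -0.40 and Etfdh by -0.10. Apart from Acox2, no member passed the test, and the lowest adjusted p among the others was 0.0759 in limma. The analysis of variance of the study's methods, at an unadjusted p and 1.5-fold, named 2 members, Acox2 and Ucp3, where it named 5.08% of 7228 genes. Its p is from a single test over all groups of the SCI experiment, and only the fold minimum is specific to SCI against Sham-SCI.

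The adjusted p of 0.0759 belonged to Ucp3, the uncoupling protein of skeletal muscle mitochondria. Its level was 9.22, 9.96 and 9.75 in Sham-SCI and 11.21, 10.72 and 10.62 in SCI. Every SCI array was above every Sham-SCI array, and the log2 fold change was 1.20 (95% interval 0.60 to 1.81, n = 3 per group). Its relative Ucp2, an uncoupling protein found in many cell types, stood at 9.40, 8.05 and 9.40 in Sham-SCI and at 9.68, 8.47 and 8.89 in SCI. These arrays overlapped, and the log2 fold change was 0.06 (95% interval -0.76 to 0.88). Of the genes that set the choice of fuel, Pdk4, a kinase that shuts off pyruvate dehydrogenase, differed by -0.28 and Mlycd, which removes the inhibitor of carnitine palmitoyltransferase, by -0.47.

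**Figure D1:**
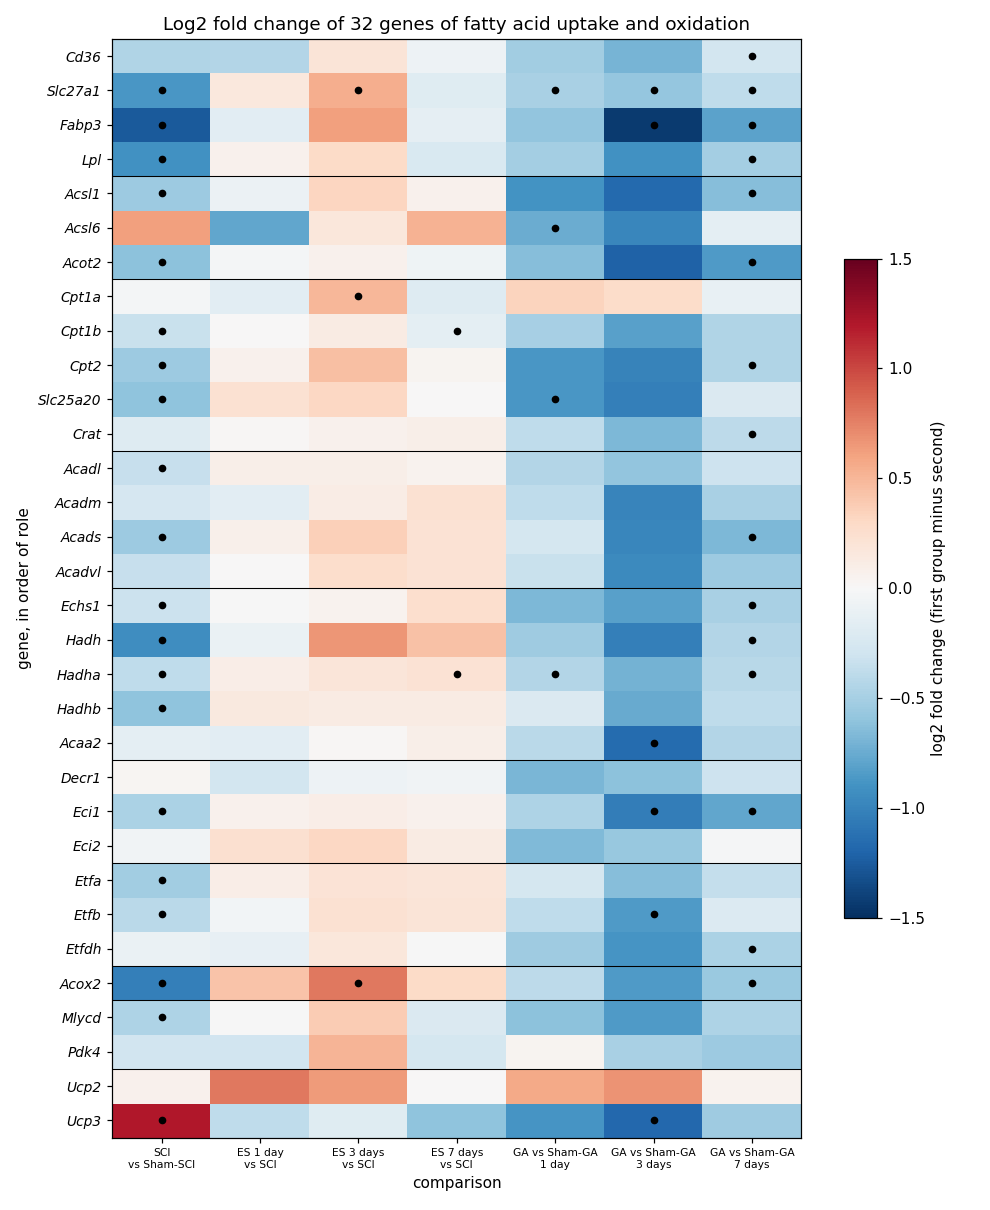
Log2 fold change (color, first group minus second) of the 32 genes in 7 comparisons, with genes in order of role from uptake at the top to uncoupling proteins at the bottom and lines between roles. A black dot marks a gene whose 3 arrays of the first group all lay above or all below the 3 of the second; the GA columns are blue for 29, 30 and 31 of 32 genes, while Ucp3 is the darkest red in the SCI column at 1.20.

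Genes around the set lay lower in part. All 23 measured subunits of oxidative phosphorylation were below 0 in SCI (median log2 fold change -0.25), and none was called. The 16 genes of fat storage and mobilisation had a median of -0.02, from -1.10 for G0s2, an inhibitor of adipose triglyceride lipase, to 0.69 for Dgat2, which makes triglyceride. The 16 peroxisomal genes had a median of -0.01 and 1 call, Crot, a peroxisomal carnitine octanoyltransferase, which rose by 0.84 on the log2 scale (adjusted p = 0.0313, limma). Of 24 other fatty acid handling genes, with a median of -0.16, Acot7, an acyl-CoA thioesterase, fell by 0.88 on the log2 scale (adjusted p = 0.0432, limma). The 24 regulators ranged from -1.87 for Perm1, a muscle regulator of oxidative genes, to 1.67 for Prkag3, an AMPK subunit of fast muscle, with a median of -0.27 and no call. Markers of fiber type and of other cells also differed in level: 10 of 10 slow fiber markers were below 0 (median -1.03), 10 of 10 fast fiber markers above 0 (median 1.14), 11 of 11 macrophage markers above 0 (median 0.52) and 9 of 9 adipocyte markers above 0 (median 0.17). Endothelial markers had a median of 0.11. Their part in the result was not tested.

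After electrical stimulation of the paralysed muscle no member was called against SCI at any time, and the median of the set lay between 0.00 and 0.22. The SCI-ES groups are all compared with the same 3 SCI arrays. After 1 day, 16 members were above and 16 below 0, with a median of 0.00; 0% of all genes were called, and 0 members and 1053 genes had an unadjusted p under 0.05. After 3 days, 30 members were above 0, with a median of 0.22 against -0.01 over all genes. Again 0% of genes were called, and 1 member and 444 genes had an unadjusted p under 0.05. After 7 days, 20 members were above 0, with a median of 0.06, 0% of genes called, and 0 members and 410 genes with an unadjusted p under 0.05; without SCI replicate 2, 23 members were below 0 and the median was -0.04. The adjusted p of every member was at least 0.688 at 1 day and 0.999 or more at 3 and 7 days (limma). By the analysis of variance in the study's methods, at an unadjusted p and 1.5-fold, 0, 1 and 1 members were named at the 3 times. It named 1.62%, 0.581% and 0.346% of 7228 genes, and 0 members at each time after Benjamini-Hochberg adjustment. Its p is from a single test over all groups of the SCI experiment, Sham-SCI among them, so only the fold minimum is specific to ES. The members named, Acox2 at 3 days and Ucp3 at 7 days, were also those named for SCI against Sham-SCI.

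At 3 days the largest difference was that of Acox2, with 6.49, 6.84 and 6.95 after ES against 6.25, 5.65 and 6.0 in SCI. All 3 stimulated arrays were higher, and the log2 fold change was 0.79 (95% interval 0.35 to 1.23, adjusted p = 0.9995, limma). Slc27a1 and Cpt1a were the other members whose ES arrays at 3 days all exceeded those of SCI, 3 members in all, where 3.55% of genes did so. Slc27a1 read 8.14, 8.30 and 8.58 after ES against 7.88, 7.72 and 7.77, a log2 fold change of 0.55. Cpt1a read 8.55, 8.71 and 8.50 against 7.79, 8.43 and 8.06, a log2 fold change of 0.49. Fabp3 differed by 0.61 with a 95% interval from -0.43 to 1.65. Ucp3 had the lowest value of the set, -0.18, with 10.66, 10.68 and 10.67 after ES, within the range of SCI. Without SCI replicate 2, whose members lay lowest of the 3 SCI arrays, 23 members were above 0 at 3 days and the median was 0.07.

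At 1 day the arrays of the stimulated group lay far apart. Of the 32 members, 1 was above its own mean over the SCI experiment on SCI-ES 1 day replicate 1, 31 on replicate 2 and 4 on replicate 3. Fabp3 read 9.47, 12.21 and 10.53 on these arrays, a wider spread than between any of the group means of that gene. The same arrays ordered the oxidative phosphorylation subunits alike, with median deviations of -0.57, 0.24 and 0.03. Without replicate 1 the members' median against SCI was 0.32, and without replicate 2 it was -0.36, with Decr1 then called lower, beside 0.187% of all genes. Acsl6 had the lowest log2 fold change at 1 day, -0.78 (8.16, 10.19 and 10.34), and Ucp2 the highest, 0.79 (10.06, 9.81 and 9.55); both groups of arrays overlapped those of SCI.

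At 7 days Ucp3 was again lowest, at -0.60 (10.63, 9.81 and 10.31, 95% interval -1.21 to 0.01), and Acsl6 highest, at 0.52 (10.82, 10.55 and 11.23, 95% interval -0.65 to 1.70). Hadha alone lay wholly above SCI, where 4.29% of genes did so, and Cpt1b alone wholly below, where 3.29% did so. Their differences were 0.21 and -0.15 on the log2 scale. From 1 to 7 days of ES, Acsl6 differed by 1.30 and Ucp2 by -0.79, the highest and lowest of the set; 0% of genes were called, with 1 member and 1754 genes at an unadjusted p under 0.05. The methods' analysis of variance, with its p over all groups of the SCI experiment, named 0 members, where it named 2.49% of genes at an unadjusted p. The adjusted p was 0.373 for Acsl6 and 0.427 for Ucp2 (limma).

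**Figure D2:**
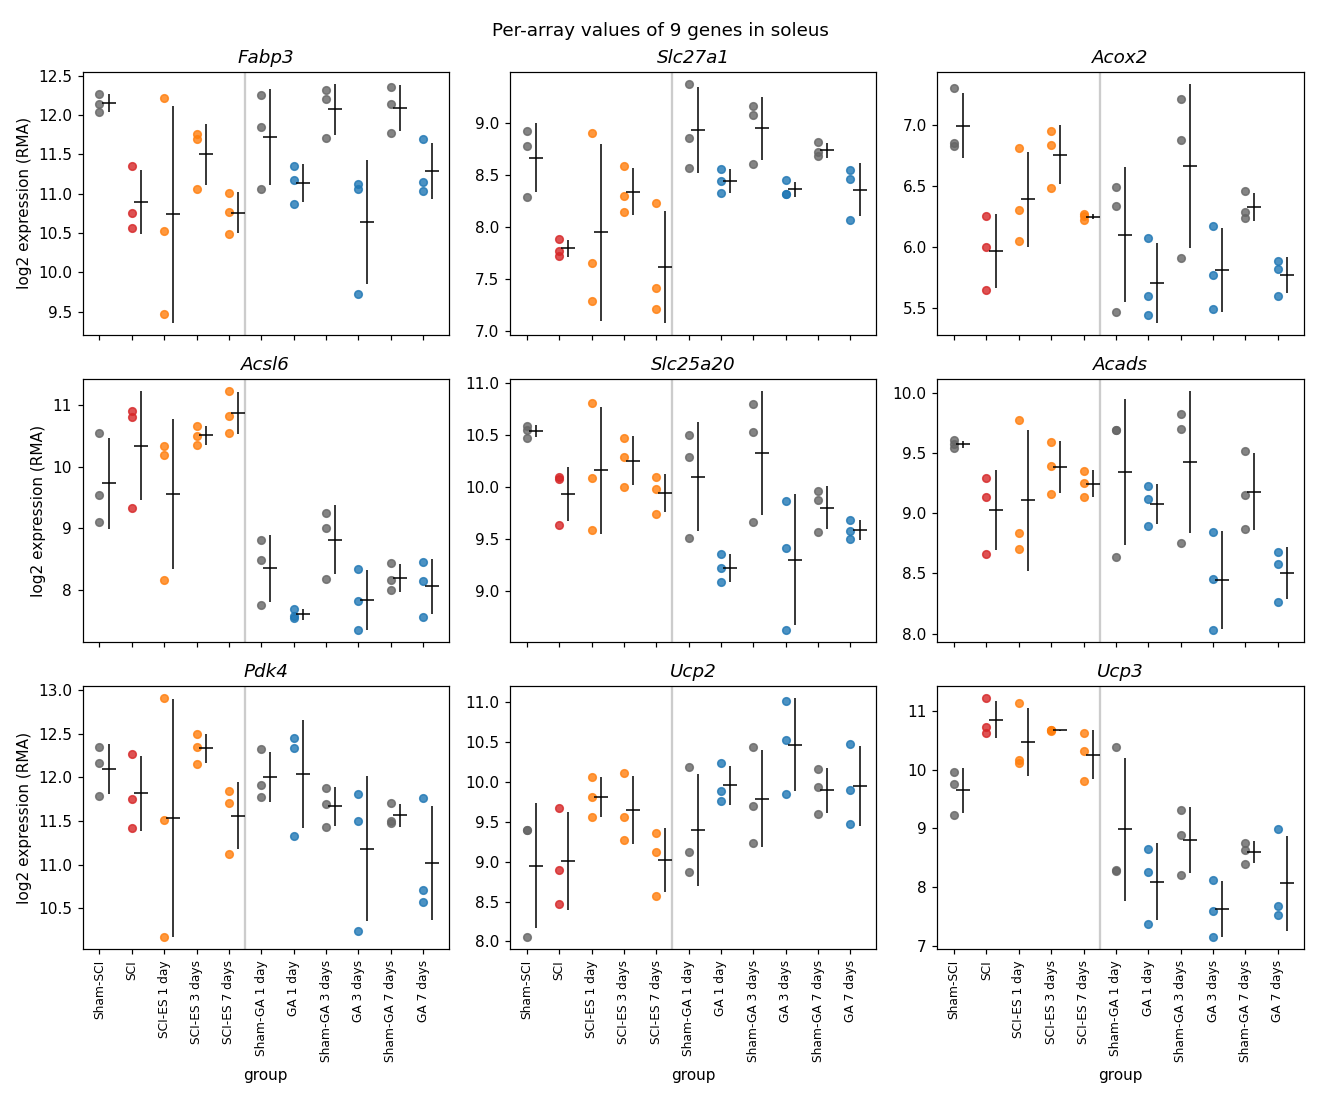
Log2 expression (vertical axes) of 9 genes on all 33 arrays, by group (horizontal axes); points are arrays, and the black mark and bar beside them are the mean and standard deviation of 3. Fabp3 and Slc27a1 of SCI lie below Sham-SCI, Ucp3 of SCI lies above, and the SCI-ES 1 day points of Fabp3 spread from 9.47 to 12.21.

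Overload of an innervated soleus went with lower values across nearly the whole set. GA against Sham-GA was below 0 for 29 of 32 members at 1 day, 30 at 3 days and 31 at 7 days, and 29 members were below 0 at all 3 times; Cpt1a, Pdk4 and Ucp2 were the exceptions. The medians were -0.50, -0.85 and -0.45, against -0.01, -0.03 and 0.00 over all genes. With 1 array left out the median at 1 day ranged from -0.78 (without Sham-GA 1 day replicate 1) to -0.31 (without Sham-GA 1 day replicate 3). For 27 of the 29, the 3 days value was the lowest of the 3. No member passed the test at any day, where 0.0554% of genes were called at 1 day, 0% at 3 days and 0% at 7 days. Unadjusted p-values under 0.05 were given to 5 members and 1978 genes at 1 day, 27 members and 2383 genes at 3 days, and 3 members and 380 genes at 7 days. The lowest adjusted p of a member was 0.247 at 1 day, 0.288 at 3 days and 0.999 at 7 days (limma). The methods' analysis of variance at an unadjusted p named 7, 14 and 4 members, where it named 4.19%, 3.63% and 1.02% of 7226 genes, and 0 members at each day after Benjamini-Hochberg adjustment. Its p is from a single test of GA over all 3 times, so it is shared by the days, and only the 1.5-fold minimum is specific to a day.

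The arrays of GA lay wholly below those of Sham-GA for 4 members at 1 day, 6 at 3 days and 15 at 7 days, where 11.1%, 7.64% and 6.35% of genes did so. No member lay wholly above at any day. Slc27a1 was the only member that lay wholly below on all 3 days. It read 8.56, 8.33 and 8.44 in GA against 8.57, 9.38 and 8.85 in Sham-GA at 1 day. The values were then 8.45, 8.31 and 8.32 against 9.16, 8.60 and 9.07, and 8.55, 8.07 and 8.46 against 8.82, 8.68 and 8.71. Its log2 fold changes were -0.49, -0.59 and -0.38, and at 1 day the groups were parted by 0.01 only. Eci1, Fabp3 and Hadha lay wholly below on 2 of the 3 days. The share of all genes that lay wholly below on 2 or on all 3 days was not counted.

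Fabp3 had the largest difference at 3 days, with 11.06, 11.13 and 9.73 in GA and 12.32, 11.71 and 12.20 in Sham-GA. The log2 fold change was -1.44 (95% interval -2.19 to -0.69, 2.71-fold lower), and the third GA array was the lowest by more than 1 log2 unit. At 7 days Fabp3 differed by -0.80, with 11.69, 11.14 and 11.03 in GA and 12.35, 12.13 and 11.78 in Sham-GA. In activation, Acsl1 was the lowest member at 1 day, at 9.47, 9.91 and 9.83 in GA against 9.72, 11.19 and 10.96, a log2 fold change of -0.89 with overlap through 1 Sham-GA array. Acot2 was the lowest at 7 days, at 8.87, 8.54 and 8.53 against 9.74, 9.61 and 9.13, a log2 fold change of -0.85 without overlap. Acsl6, which was above 0 after SCI, differed by -0.75, -0.98 and -0.14 at the 3 times after GA.

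The mitochondrial steps followed the same course. Slc25a20 read 9.22, 9.09 and 9.36 in GA and 9.51, 10.29 and 10.5 in Sham-GA at 1 day, a log2 fold change of -0.88, and Cpt2, the inner-membrane carnitine palmitoyltransferase, differed by the same -0.88. At 3 days all 5 genes of the later steps of beta-oxidation were between -1.15 (Acaa2, the thiolase) and -0.71 (Hadha). All 4 acyl-CoA dehydrogenases lay between -1.0 and -0.60 at 3 days, and Acads was still at -0.67 at 7 days, with 8.67, 8.58 and 8.26 against 9.51, 9.15 and 8.87. The 3 flavoprotein genes lay between -0.88 and -0.64 at 3 days. Cpt1a was on the other side at 0.34 and 0.28 on the first 2 times and at -0.11 on the last.

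The uncoupling proteins lay on opposite sides of 0 after GA. Ucp2 was the highest member at every time, at 0.56, 0.68 and 0.05. It read 10.23, 9.75 and 9.88 in GA against 10.19, 9.12 and 8.87 at 1 day, 11.01, 9.85 and 10.53 against 9.23, 10.44 and 9.69 at 3 days, and 9.90, 9.47 and 10.47 against 9.60, 9.93 and 10.16 at 7 days. The groups overlapped at each time, and the 7 days value ranged from -0.21 to 0.29 with 1 array left out. Ucp3 differed by -0.89, -1.18 and -0.53, and at 3 days its GA arrays, 8.12, 7.61 and 7.16, were all below 9.32, 8.89 and 8.21 in Sham-GA.

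Averaged over the 3 times, the GA effect was below 0 for 30 of 32 members, with a median of -0.62 against -0.01 over all genes. It ran from -0.94 for Fabp3 (95% interval -1.37 to -0.51, adjusted p = 0.166, limma) to 0.43 for Ucp2. No member was called and 0% of genes were called, while 29 members and 2782 genes had an unadjusted p under 0.05. The methods' test named 19 members at an unadjusted p, where it named 4.14% of genes, and 0 after adjustment. Around the set, all 23 oxidative phosphorylation subunits were below 0 on average (median -0.37) and 11 of 11 macrophage markers were above 0 (median 0.48). At 3 days these medians were -0.62 and 0.84, and 9 of 10 slow fiber markers were below 0 (median -0.32). The 7 muscle genes of the label check were all below 0 at 3 days (median -0.26). Of 24 regulators 22 were below 0 at 3 days, down to -1.78 for Perm1. The part of other cell types in these values was not tested.

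A pair of arrays decided whether GA values at 1 day, at 3 days and for the mean effect passed the test. Sham-GA 3 days replicate 2 and Sham-GA 1 day replicate 1 correlated least with the others of their groups over all genes, at a mean r of 0.969 and 0.971, where the other 31 arrays had 0.978 to 0.992. On them the members' median deviation from their own means was -0.07 and -0.30, and on the other arrays of those groups it was 0.56 to 0.81, so leaving them out removes the Sham-GA arrays nearest to GA. Their macrophage markers were at 0.55 and 0.60, and on the other 4 arrays of the same groups between -0.97 and -0.30. Without Sham-GA 3 days replicate 2, 20 members were called lower at 3 days, where 8.9% of all genes were called, and the median was -1.14. The mean GA effect then had 19 members called, where 3.41% of genes were called. Without Sham-GA 1 day replicate 1 it had 18, where 2.38% were called. Without both, the members called were 7 at 1 day, 27 at 3 days and 29 for the mean effect, beside 4.8%, 13.7% and 7.7% of all genes. Ucp2 was among the last 2 sets, higher by 1.0 at 3 days, and all other members called were lower. The medians at 1 day and 3 days, -0.78 and -1.14, were the same as without the array of that day alone. Without that array alone, 1 and 20 members were called. The spread is pooled over all groups of the fit, so an array of another day also bears on the calls. GA at 7 days was not fitted again without either array. At 3 days, GA 3 days replicate 3 was the lowest array of the experiment for the members, at -1.0, and without it the median was -0.55.

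**Figure D3:**
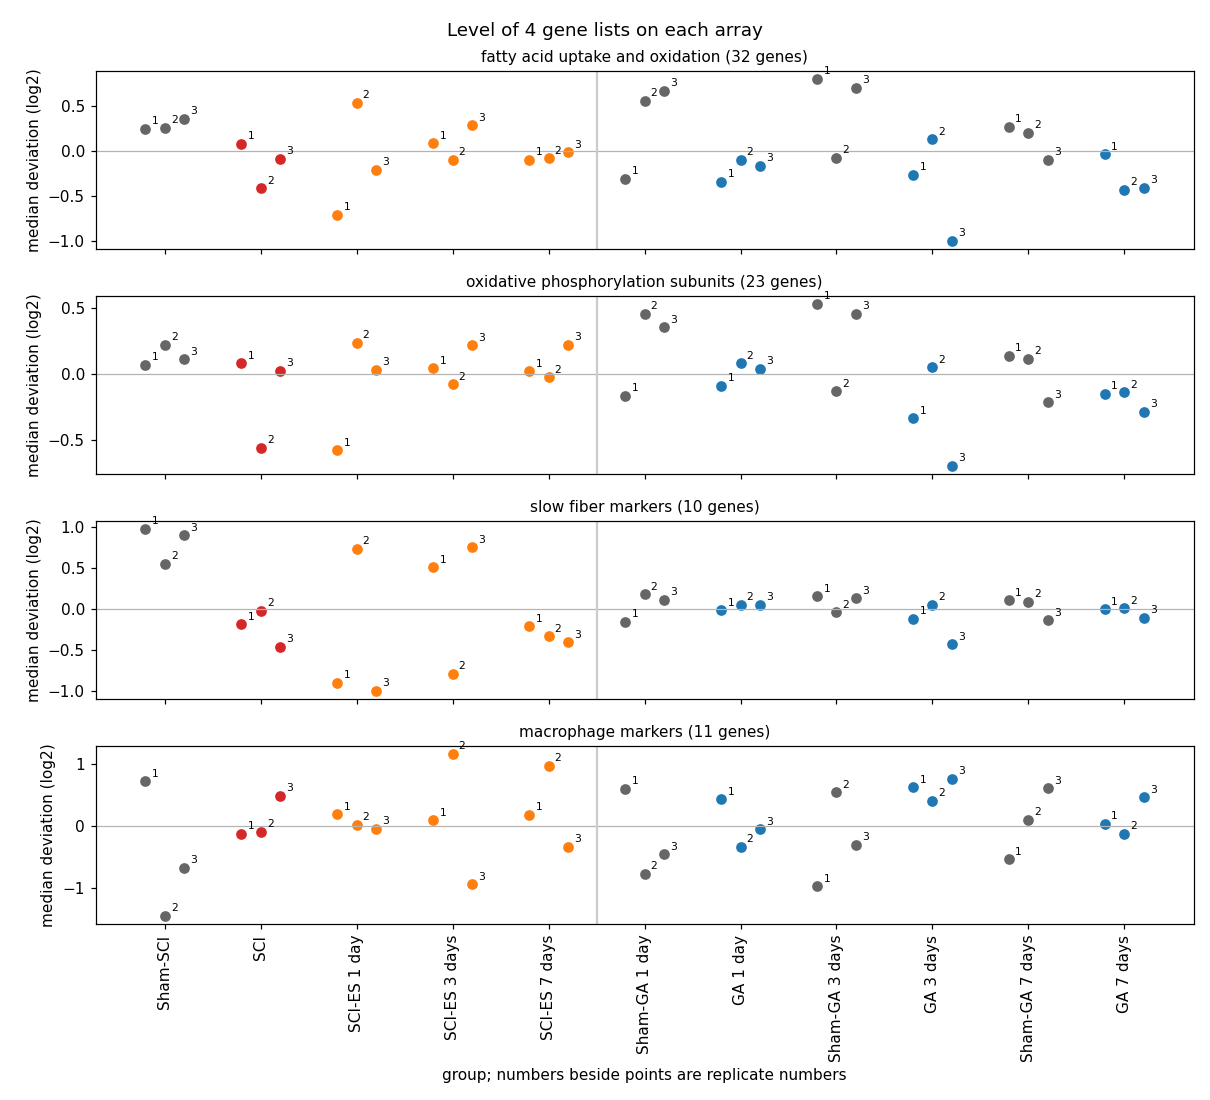
Median deviation (vertical axes, log2) of the genes of 4 lists from their own means over the arrays of the same experiment, for each array by group (horizontal axis), with replicate numbers beside the points; the SCI experiment is left of the line and the GA experiment right. Sham-GA 1 day replicate 1 (-0.30) and Sham-GA 3 days replicate 2 (-0.07) lie below the other arrays of their groups in the top panel and above them in the macrophage panel.

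**Figure D4:**
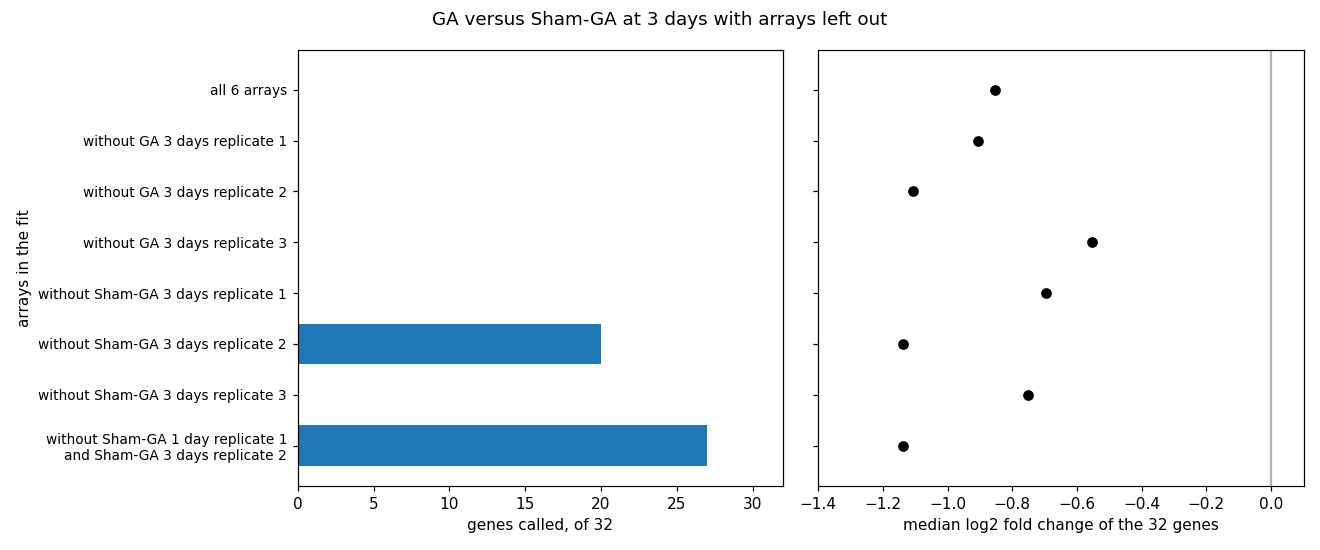
Members called, of 32 (left, bars), and median log2 fold change of the 32 genes (right, points) for GA against Sham-GA at 3 days, with all 6 arrays and with arrays left out. No member is called except without Sham-GA 3 days replicate 2, where 20 are, and without both arrays, where 27 are.

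The Sham-GA groups gave the course of the set without overload. From 1 to 3 days 27 members were above 0 with a median of 0.15, and 0% of genes were called; 784 genes and 0 members had an unadjusted p under 0.05. Acsl1 was highest, at 0.71, and Pdk4 lowest, at -0.34 (11.87, 11.44 and 11.69 against 11.77, 11.91 and 12.33). From 1 to 7 days 23 members were below 0 with a median of -0.16. No member was called, although 949 of 14451 genes (6.57%) were. Decr1 was lowest, at -0.76 (8.81, 8.65 and 8.00 against 8.58, 9.24 and 9.91, adjusted p = 0.216, limma), and Ucp2 highest, at 0.50. Both medians changed sign without some single arrays, and without both arrays that stand apart Decr1 was called lower, beside 7.76% of all genes. Among related genes, Dgat2 fell by 0.93, Tfam, a factor for mitochondrial DNA, fell by 0.93, the adipocyte marker Cfd rose by 1.31, and the macrophage markers Adgre1, C1qa and C1qc rose by 1.46, 1.26 and 1.06, on the log2 scale and with adjusted p-values from 0.0136 to 0.0357 (limma). These genes were named because they were called, beside 6.57% of all genes. The other genes of their lists are not given here.

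The effects of both kinds of loading, ES and GA, were then set against each other at each time, over all 33 arrays. The experiments also differed in the cord, in the earlier tenotomy of SCI and SCI-ES, and in the control, which was matched by day for GA only. The kind of loading cannot be told apart from these. The ES effect minus the GA effect was above 0 for 29 members at 1 day, 31 at 3 days and 29 at 7 days, with medians of 0.44, 1.09 and 0.49. The median at 1 day was 0.14 without SCI-ES 1 day replicate 2, with 23 members above 0, and 0.79 without replicate 1. No member was called, where 0.0554%, 0% and 0% of genes were called, and 3, 22 and 2 members and 1875, 1369 and 454 genes had an unadjusted p under 0.05. At 1 day the values ran from -0.49 for Cpt1a to 1.10 for Slc25a20, which read 9.59, 10.80 and 10.08 after ES and 10.07, 9.64 and 10.09 in SCI (adjusted p = 0.242, limma). At 3 days they ran from -0.04 for Ucp2 to 2.05 for Fabp3 (95% interval 0.76 to 3.34, adjusted p = 0.477, limma), and at 7 days from -0.09 for Cpt1a to 0.89 for Acads, whose ES arrays read 9.25, 9.13 and 9.35 and whose SCI arrays read 9.29, 8.66 and 9.14. Without both Sham-GA arrays that stand apart, 1 member at 1 day (Slc25a20) and 3 at 3 days (Acads, Acox2 and Slc25a20) were called, beside 1.81% and 0.381% of all genes.

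The promoters of the members, most of which lay lower together, were read for the hexamer AGGTCA, the core bound by PPARs and estrogen-related receptors, nuclear receptors known to control this pathway. RefSeq (GRCr8) gave a window from 250 bases before to 50 after the start for 27 members; Acaa2, Acadl, Cpt1b, Decr1 and Lpl have no entry. On either strand, 7 of the 27 windows (25.9%) held the hexamer, where 16.2% of 33469 windows did: Acadvl, Echs1, Eci1, Eci2, Hadhb, Slc27a1 and Ucp3. The longer forms TCAAGGTCA and AGGTCANAGGTCA, which contain it, were in 0 of the 27 and in 0.433% and 0.0538% of all windows. The windows of 3 members are shown, 5′ to 3′ in the direction of the gene, with the hexamer in capitals (its complement where it lies on the other strand): Slc27a1, apart in GA at every time and in SCI; Eci1, apart in SCI and on 2 days of GA; and Ucp3, which lay on opposite sides of its control in SCI and GA. They lie at chr16:18312717-18313016 (plus strand), chr10:13961000-13961299 (plus strand) and chr1:164227660-164227959 (plus strand).
Slc27a1: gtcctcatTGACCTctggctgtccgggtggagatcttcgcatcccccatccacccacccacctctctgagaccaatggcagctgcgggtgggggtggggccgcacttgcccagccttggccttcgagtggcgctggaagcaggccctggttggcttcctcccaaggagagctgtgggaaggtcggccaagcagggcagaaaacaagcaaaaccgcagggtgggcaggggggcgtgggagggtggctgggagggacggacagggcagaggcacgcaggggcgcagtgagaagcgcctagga
Eci1: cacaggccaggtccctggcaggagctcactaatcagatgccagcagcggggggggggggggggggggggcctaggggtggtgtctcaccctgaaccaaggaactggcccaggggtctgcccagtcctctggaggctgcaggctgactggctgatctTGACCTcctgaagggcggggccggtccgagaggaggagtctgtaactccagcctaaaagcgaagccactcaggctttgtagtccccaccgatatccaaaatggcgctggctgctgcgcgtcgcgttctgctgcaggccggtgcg
Ucp3: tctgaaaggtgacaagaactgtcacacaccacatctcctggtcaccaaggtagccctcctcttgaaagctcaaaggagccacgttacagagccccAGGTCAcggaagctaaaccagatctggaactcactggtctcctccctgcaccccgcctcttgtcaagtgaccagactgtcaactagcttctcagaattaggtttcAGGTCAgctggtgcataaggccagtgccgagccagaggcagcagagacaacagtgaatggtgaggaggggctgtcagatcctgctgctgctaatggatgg
Ucp2 lies near Ucp3 on the same strand, at chr1:164251123-164251422, and its window held no AGGTCA. The windows shown were picked among those that hold AGGTCA. Fabp3 and Hadha, apart in SCI and on 2 days of GA as Eci1 was, held none in theirs. A match in these letters is a description and not a binding site.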

How the data were processed

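Total RNA of soleus, with RNA integrity over 8, was hybridized to Affymetrix rat ST arrays. The authors subtracted the baseline, normalized by quantiles and summarized by median polish (RMA, oligo, as the submitters' processing notes also name), and the deposited values are log2 expression for 29214 transcript clusters. They run from 2.10 to 14.26, with array medians of 6.45 to 6.54. The number of arrays, not depth, limits the precision. The methods name an exon array while the annotation given for these clusters is of the gene array. The design text gives 2 days where the labels give 3, and bilateral ablation where the paper gives the left leg. The labels and the paper were followed.

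A cluster was used where the platform annotation gave 1 symbol (15310 clusters; 323 had several and 13581 none), and of 527 genes with several clusters the brightest was kept, which left 14506 genes. Among the members this applied to Cd36 and Hadha. Genes with a mean of at least 3 entered linear models of the group means (lmFit and eBayes of limma 3.58.1, under R 4.3.3), separately for the 15 arrays of the SCI experiment and the 18 of the GA experiment, and over 33 for the ES minus GA differences. The code was tested on simulated data. Intervals are 95%. Values were given on every array for members called and for the highest and lowest member of a comparison; from related lists, called genes and the ends of a list's range were named. Slc27a1, Lpl, Hadh, Cpt2 and other members were named as members of the set. The members, lists and tests were chosen with earlier results of these data known.

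Alternatives were a filter at 6, no filter, a second quantile normalization, no fold minimum, other sets of arrays in the fit, a trended and robust prior, the mean of all clusters of a gene, the methods' ANOVA filter, a replicate block and each array left out. The methods' analysis of variance was run only on genes at or above the median variance over the 33 arrays (7228 in the SCI and 7226 in the GA experiment). Its percentages are shares of these genes. Leaving out both Sham-GA arrays that stand apart was chosen after seeing the data.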

Additional observations from a re-analysis of the deposited data

Results flagged for a closer look

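Slc27a1 at 3 days and Hadha at 7 days were singled out because all 3 SCI-ES arrays lay above all 3 SCI arrays while all 3 GA arrays lay below all 3 Sham-GA arrays. The ES effect minus the GA effect of Slc27a1 was 1.13 on the log2 scale (standard error 0.41, adjusted p = 0.477, limma). For Hadha it was 0.63 (standard error 0.34, adjusted p = 0.999, limma). Neither difference passed the test. The rule was applied to all 32 members at each of the 3 times, and the share of all genes that meet it was not counted. The arrays that picked these genes also gave their differences. With 1 array left out, the value of Slc27a1 ranged from 1.01 to 1.30.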

How the results depend on the processing

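With 3 arrays a group, leaving out 1 array moved many values, and the cause of a change was not tested. For SCI against Sham-SCI, 1 member (Acox2) was called. The count was 0 in 1 fit of all 33 arrays (adjusted p = 0.0618, limma), 0 with the replicate number as a block (adjusted p = 0.0743, limma) and 0 to 0 without any 1 of the 6 arrays. In a fit of those 6 arrays alone Acox2 was lost (adjusted p = 0.0609, limma) and Fabp3 was called. The methods' analysis of variance, at an unadjusted p, named 2 members for SCI (5.08% of the genes it tested), 0, 1 and 1 for ES at 1, 3 and 7 days (1.62%, 0.581% and 0.346%), 0 for ES at 7 days against 1 day (2.49%), 7, 14 and 4 for GA at 1, 3 and 7 days (4.19%, 3.63% and 1.02%) and 19 for the mean GA effect (4.14%). After Benjamini-Hochberg adjustment it named 0 members in each. Its terms do not cover the Sham-GA times or the ES minus GA differences, where it was not run. All comparisons within the SCI experiment shared the same p of this test, and so did the separate GA days. Only the fold minimum told those counts apart. Without both Sham-GA arrays that stand apart, chosen after seeing the data, 7, 27 and 29 members were called for GA at 1 day, GA at 3 days and the mean GA effect (4.8%, 13.7% and 7.7% of all genes), 1 (Decr1) for Sham-GA 7 days against 1 day (7.76%), and 1 and 3 for the ES minus GA difference at 1 and 3 days (1.81% and 0.381%).

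With each array left out in turn, the members called ranged from 0 to 1 for ES at 1 day and for ES at 7 days against 1 day (Decr1, in both without SCI-ES 1 day replicate 2, where 0.187% and 0.685% of all genes were called), 0 to 1 for GA at 1 day (Cpt2, without Sham-GA 1 day replicate 1, where 1.26% were), 0 to 20 for GA at 3 days and 0 to 19 for the mean GA effect. The members' median ranged from -0.36 to 0.32 for ES at 1 day, from -0.04 to 0.17 for ES at 7 days, from -0.27 to 0.37 for ES at 7 days against 1 day, from -0.13 to 0.42 for Sham-GA 3 days against 1 day and from -0.47 to 0.02 for Sham-GA 7 days against 1 day. The medians of GA stayed below 0, from -0.78 to -0.31 at 1 day, from -1.14 to -0.55 at 3 days and from -0.55 to -0.35 at 7 days. Those of ES minus GA stayed above 0, from 0.14 to 0.79, 0.75 to 1.33 and 0.34 to 0.61 at the 3 times. The sign turned in at least 1 such fit for 6 of the 32 members for SCI, 28, 11 and 16 for ES at 1, 3 and 7 days, 29 for ES at 7 days against 1 day, 1, 0 and 4 for GA at 1, 3 and 7 days, 0 for the mean GA effect, 24 and 17 for Sham-GA 3 and 7 days against 1 day, and 10, 2 and 4 for ES minus GA. They include Ucp3 for ES at 3 days (-0.30 to 0.00017), Ucp2 for GA at 7 days (-0.21 to 0.29), and, for ES minus GA, Ucp2 at 3 days (-0.37 to 0.29) and Cpt1a at 7 days (-0.39 to 0.17).

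Deviations of arrays with the same number correlated from -0.41 to 0.67 (median -0.05) in the SCI and from -0.72 to 0.61 (median -0.07) in the GA experiment. For arrays of different numbers the medians were 0.02 and 0.05. No pairing by number was seen, though groups this small cannot exclude it. The replicate block lowered the genes called for SCI from 58 to 26 and for GA at 1 day from 8 to 1. It changed no other member's call. Over all genes, 1 fit of all 33 arrays called 142 in place of 58 for SCI, 81 in place of 8 for GA at 1 day and 13 in place of 0 for ES at 7 days against 1 day, and only the arrays compared gave 154, 0 and 0. For Sham-GA 7 days against 1 day, 949 genes became 1491 without a fold minimum and 579 from those 6 arrays alone. A second quantile normalization called 13 genes in place of 8 for GA at 1 day. Filters, the second quantile normalization, the mean of clusters and the trended prior left each count of members called as it was.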
